A study of Mus musculus with 18 samples.

Results

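The 75 genes described here encode the protein components of the cytosolic ribosome, the particle that translates every nuclear mRNA. They were taken from the 23420 gene symbols of the count files by symbol alone, as Rps or Rpl followed by a number and at most the letter a or x, plus the 3 acidic stalk genes Rplp0, Rplp1 and Rplp2. The rule gave 29 genes of the small (40S) subunit, 43 of the large (60S) subunit and the 3 stalk genes, and used no measured value. Of these, 74 passed the filter on low counts, against 17166 of all 23420 symbols. Rpl26 did not pass, with no more than 1 count in any library.

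RNA was sequenced from E14 embryonic stem (ES) cells of the mouse, wild type in genotype, and from neural cultures made from them, in 18 libraries that fall into 9 groups of 2. Undifferentiated ES cells, grown without feeder cells, received GW3965, LG268 or both ligands for 24 h, each at 1 µM, or served as the control of these treatments. Differentiation ran through floating cell aggregates (embryoid bodies) with 5 µM retinoic acid over 4 days and then plating on laminin. Those cultures were taken at day 8, at day 16 with GW3965 and without it, and at day 17 with GW3965 and without it. GW3965 activates the liver X receptors and LG268 the retinoid X receptors, their pairing partners, and all groups share the wild type E14 background. The labels give no duration for GW3965 at days 16 and 17. File names read as treatment from day 8 in the day 16 cultures and for 24 h in the day 17 ones. The GW3965 exposures described below may thus differ in length. The names of the both-ligand files read as a control, while their labels give both ligands. The labels did not say that replicates were separate cultures, so p-values measure the spread between these libraries, which may be technical.

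Ribosomal proteins assemble with ribosomal RNA in the nucleolus, where assembly factors such as nucleolin and fibrillarin act, and in the cytoplasm. Cells make them in near equal numbers, and their mRNAs typically start with a run of pyrimidines (a terminal oligopyrimidine tract, TOP) through which the growth-sensing kinase mTOR controls translation. Their genes left many processed pseudogenes in the mouse genome, so that short reads from one gene can also match others. Stem cells and dividing progenitors are known for high ribosome production, which declines as neurons mature.

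Gene counts ran from 16748556 to 44788592 a library. Reads set apart as aligned more than once made up 31.84 to 33.53% of the 4 day 17 files and 0% of the other 14. That 0 means that such reads were not set apart there, not that they were absent. Members' levels at day 17 are therefore tested only between day 17 groups. Summed pluripotency genes stood at 3190 to 3520 counts-per-million (CPM) in the 8 ES libraries and at 129.8 to 308.9 CPM in the 10 differentiated ones, with no gene of that list at 0 in any library. Summed neuron genes stood at 465.5 to 559.3 CPM in ES libraries and at 1761 to 4296 CPM in differentiated ones. The labels call the cells of all 18 samples embryonic stem cells, which these sums do not match for the differentiated ones. CPM here are relative to the gene counts of a library after scaling by the trimmed mean of M values (TMM), and "called" means an adjusted p below 0.05 in edgeR's quasi-likelihood test across all 17166 genes. Since every level is a share of the counted RNA, fewer cells of a type and less RNA per cell cannot be told apart in these bulk samples.

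Much of the coding sequence of these genes is not unique to them. A median of 93% of the 50-base stretches of a member's coding sequence occurred in at least 1 other annotated gene, and for 30 members all of them did. The number of pseudogenes that share such a stretch had a median of 8 and reached 120 for Rpl7a. Only 10 members had under 50% shared stretches and 3 had under 10%, among them Rps3 with 8.09% and Rpl8 with 8.73%. Levels per kilobase of coding sequence followed this order. In ES control libraries Rpl8, a protein next to the catalytic centre, stood at 2680 CPM per kilobase, Rps3, which lines the mRNA entry, at 2640, and Rpl4, which lines the exit tunnel, at 2530. The 30 fully shared members had a median of 281 CPM per kilobase, and only Rpl41, whose coding sequence has 75 bases, stood above all of these at 8380. Over the 72 members at 1 CPM or more in ES control cells the rank correlation of shared percentage and level per kilobase was -0.62 (Pearson's r of the log2 level, -0.59), a description across genes of the same libraries. For proteins made in near equal numbers, this order of levels is also an order of how uniquely their reads can be counted, and the effect of shared reads on the levels was not tested. Rpl26, Rpl30 and Rpl34 stood below 1 CPM in ES control cells and Rps27 at 1.15 CPM, and they share 87.3%, 83.1%, 72.2% and 100% of their stretches.

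**Figure D1:**
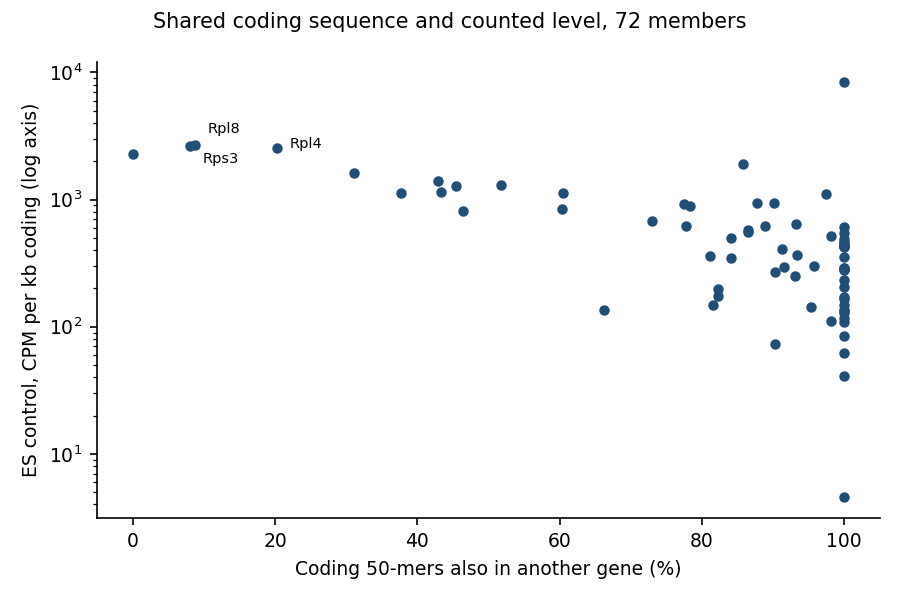
Levels of 72 members against the percentage of their coding 50-base stretches found in another gene (x axis); the y axis is the ES control level in CPM per kilobase of coding sequence on a log axis. Each point is a gene; members with few shared stretches (Rps3, Rpl8, Rpl4) stand at 2530 to 2680 CPM per kilobase, and fully shared ones spread from 4.57 to 8380.

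The pseudogene row Rpl31-ps12 held 0 to 0.12 CPM in the 4 day 17 libraries and 49.82 to 103.84 CPM in the other 14 libraries. Rps19-ps3 also stood lower at day 17, at 1.88 to 2.68 CPM against 21.42 to 42.98 CPM. Not all pseudogene rows went this way. Rps15a-ps4 had 91.33 to 127.59 CPM at day 17 against 101.37 and 103.13 CPM in untreated day 16 libraries. For Rps15a-ps6 these values were 48.14 to 59.93 CPM against 49.84 and 49.17 CPM. Stage and the way reads were counted cannot be told apart between day 17 and the other files.

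Reads of the 75 members made up 2.47 ± 0.0502% of gene counts in ES cells with GW3965, 2.5 ± 0.0106% with LG268, 2.4 ± 0.0269% with both ligands and 2.43 ± 0.0841% in ES control cells (mean ± SD, n = 2 libraries each, as below). They made up 1.19 ± 0.00919% at day 8, 1.25 ± 0.00778% at day 16 with GW3965 and 1.39 ± 0.0318% at day 16. At day 17 the share was 0.851 ± 0.0281% with GW3965 and 0.903 ± 0.0359% without it. The 8 ES libraries did not overlap with any day 8 or day 16 library, and each of the 3 ligand groups overlapped with the ES control libraries.

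**Figure D2:**
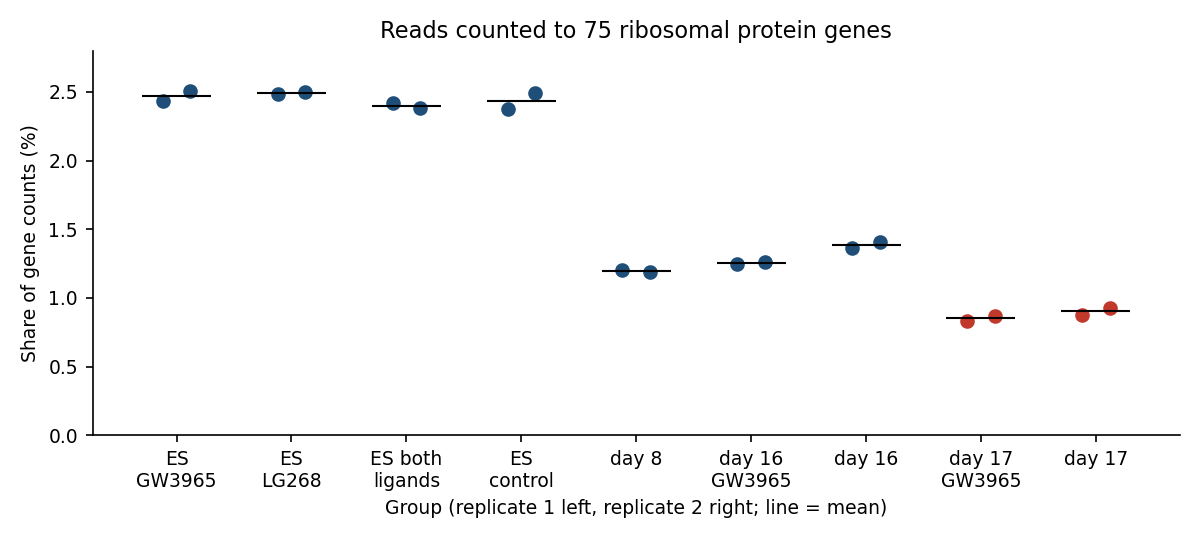
Share of gene counts (%) held by the 75 ribosomal protein genes in each of the 18 libraries, with points for libraries and a line for each group's mean; red points are the day 17 libraries, counted without reads aligned more than once. The ES libraries stand at 2.37 to 2.51%, the day 8 and day 16 libraries at 1.19 to 1.41%.

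Of 74 members 71 were lower at day 8 than in ES control cells and 0 were higher, a share of 95.9%, where 39.1% of all 17166 genes were called lower and 39.7% higher. The median log2 fold change was -1.05 over members and 0 over all genes, so that the median member stood at 48.4% of its ES level. In 72 members both day 8 libraries lay below both ES control libraries, against 44.9% of all genes. The 3 members without a call, Rpl30, Rpl34 and Rps27, are among those with almost no counts in any group.

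The falls differed in size between members. Rps2, a protein at the mRNA entry of the 40S subunit, fell most, with 86 and 86.9 CPM at day 8 against 309 and 305 CPM in ES control cells (log2 fold change -1.83 ± 0.09 SE, adjusted p = 3.63e-13). Rpl12, at the base of the stalk, had 21 and 20.8 CPM at day 8 against 68.4 and 65.6 CPM in ES control cells (-1.68 ± 0.09). Rps20, a 40S protein of the head, had 218 and 209 CPM at day 8 against 652 and 715 CPM in ES control cells (-1.68 ± 0.05). In all 3 genes the day 8 libraries agree within a few percent and lie far below the control libraries. The stalk proteins, which recruit and activate the translation factors that hydrolyse GTP, fell together, by 1.37 for Rplp0, 1.25 for Rplp1 and 1.57 for Rplp2 on the log2 scale. At the other end Rpl15, a 60S protein, had 201 and 193 CPM at day 8 against 263 and 259 CPM in ES control cells (-0.41 ± 0.05, adjusted p = 7.86e-07), and Rps15a was lower by a similar step (-0.46 ± 0.07). Even these smallest falls left no overlap between the groups.

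Members with special roles outside bulk translation moved with the rest. Rps6, the substrate of S6 kinase, had 218 and 218 CPM at day 8 against 445 and 470 CPM in ES control cells (-1.07 ± 0.06). Rpl5 and Rpl11, which bind Mdm2 as a complex with 5S RNA, were lower by 1.04 and 0.87 on the log2 scale. Rps19, a gene mutated in human Diamond-Blackfan anaemia, had 76 and 75.6 CPM at day 8 against 155 and 160 CPM in ES control cells (-1.05 ± 0.11). Rpl38, needed in mice for translation of Hox mRNAs, fell by 1.09, and Rps27a, which is made as a fusion with ubiquitin, by 0.74. Rpl3, at the peptidyl transferase centre, fell further, by 1.55, Rpl22, an RNA-binding 60S protein with a close paralog, by 1.25, and the late-joining Rpl10 by 0.78. The 40S and 60S members had medians of -1.01 and -1.06. The 10 members with under 50% shared stretches had a median of -1 and the 30 fully shared ones -1.02, with 10 of 10 and 29 of 30 called lower.

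Other genes of the ribosome and of translation were lower at day 8 too, while lists of other large complexes moved both ways. All 4 ribosomal proteins outside the symbol rule were lower, among them Rpsa (-1.27) and Gnb2l1, the scaffold Rack1 (-1.11). Of 14 translation factors and partners with TOP mRNAs 13 were lower, with a median of -0.97, led by the poly(A)-binding protein gene Pabpc1 (-2.25) and the elongation factor gene Eef2 (-1.51). Of 32 ribosome assembly and rRNA transcription genes 30 were lower and 1 higher (median -0.78), among them Lyar (-1.67), Gnl3 (-1.42) and Dkc1 (-1.36). Of 13 genes that control ribosome synthesis through MYC and mTOR 7 were lower and 4 higher, with Eif4ebp1, a translation repressor that mTOR switches off, at -1.92. Of 8 genes of the p53 response to ribosomal stress (Trp53, the p53 gene itself, and targets) 7 were lower and 0 higher, among them Mdm2 (-0.9). By contrast, of 76 mitochondrial ribosomal protein genes 38 were lower and 13 higher (median -0.18), and of 77 respiratory chain subunit genes 29 were lower and 24 higher (median 0.03). The cell type lists moved with the groups: 13 of 14 pluripotency genes were lower, and 12 of 12 neuron, 10 of 10 neural progenitor and 8 of 8 mesenchyme genes were higher, with summed mesenchyme genes at 1708 and 2043 CPM at day 8 against 139.3 and 142.7 CPM in ES control cells. The part of the changed cell makeup in the fall of ribosomal protein genes was not tested. The day 8 count stayed between 71 and 72 in every fit that kept the whole set, and the median was -0.85 with offsets for GC content and length.

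Between day 8 and day 16 the change was small. Of 74 members 24 were higher at day 16 than at day 8 and 1 was lower, where 29.4% of all genes were called higher and 32.2% lower. A share of 32.4% called higher lies near the background, while 1.35% called lower does not. The median log2 fold change was 0.15 over members and -0.04 over all genes, and 65 of 74 members had a positive one. The groups did not overlap in 57 members, higher at day 16, against 39% of all genes. At day 16 the 72 members still stood at a median of 54.2% of their ES control level, and 71 of them stood below it.

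Of the stalk genes Rplp0 and Rplp1 were among the largest called rises at day 16, and Rplp2 was not called. Rplp1 had 221 and 245 CPM at day 16 against 155 and 167 CPM at day 8 (log2 fold change 0.53 ± 0.18, adjusted p = 0.0171), and Rplp0 had 413 and 409 CPM at day 16 against 314 and 309 CPM at day 8 (0.40 ± 0.09, adjusted p = 0.000804). Rplp2 had 17.3 and 18.2 CPM at day 16 against 15.6 and 15.7 CPM at day 8 (0.18 ± 0.16). Rpl39, a small protein of the exit tunnel, had 57.5 and 61.5 CPM at day 16 against 46 and 43.6 CPM at day 8 (0.41 ± 0.14). The largest fold change was that of Rps27 (0.92 ± 0.39, adjusted p = 0.0491), which rests on levels of 1.23 and 1.29 CPM at day 16 against 0.503 and 0.817 CPM at day 8. Rpl27 was the one lower member, with 60.4 and 64.9 CPM at day 16 against 72.6 and 72.5 CPM at day 8 (-0.21 ± 0.07). Rps6 (0.05 ± 0.06, adjusted p = 0.452) and Rps27a (0.18 ± 0.09, adjusted p = 0.084) were not called.

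Counts of the genes that build ribosomes did not share the members' small positive step between day 8 and day 16. Of the 32 assembly and rRNA transcription genes 21 were lower at day 16 and 0 higher (median -0.27), led by Rrn3, a polymerase I initiation factor (-0.77). Of the 76 mitochondrial ribosomal protein genes 42 were lower and 1 higher, and of the 14 translation factors 4 were higher and 2 lower. Glial and mesenchymal genes moved at the same step, with 10 of 10 astrocyte and oligodendrocyte genes and 8 of 8 mesenchyme genes higher and 7 of 12 neuron genes lower. Summed mesenchyme genes stood at 10840 and 12250 CPM at day 16 against 1708 and 2043 CPM at day 8, and the part of this in the members' rise was not tested. The count of 25 called members was 11 (6 higher and 5 lower) with offsets for GC content and length, which also moved the median of all genes by -0.15, and 54 in a fit of these 4 libraries alone. It was 38 with DESeq2 size factors, and 8 without day 16 replicate 2, 14 without day 8 replicate 1 and 11 without day 8 replicate 2.

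GW3965 in differentiating cultures went with lower ribosomal protein mRNA at day 16. Of 74 members 28 were lower in GW3965-treated than in untreated day 16 cultures and 0 higher, where 18.7% of all genes were called lower and 13% higher. The median log2 fold change was -0.19, against -0.03 over all genes, and 73 of 74 members had a negative one. In 63 members both treated libraries lay below both untreated ones, against 37% of all genes. The steps were small, and the median member stood at 87.9% of its untreated level.

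Rpl12 showed the largest called step, with 20 and 20.7 CPM in treated cultures against 26.3 and 26.8 CPM in untreated ones (log2 fold change -0.39 ± 0.09, adjusted p = 0.00236). Rpl13a, a 60S protein that in humans can also leave the ribosome to repress inflammatory mRNAs, had 238 and 233 CPM in treated cultures against 301 and 310 CPM in untreated ones (-0.38 ± 0.06, adjusted p = 7.22e-05). Rps10, a 40S protein at the mRNA entry, had 55.1 and 52 CPM in treated cultures against 66.2 and 69.7 CPM in untreated ones (-0.34 ± 0.08), and Rpl3 had 114 and 113 CPM against 143 and 139 CPM (-0.32 ± 0.06, adjusted p = 0.000172). In these 4 genes the spread within each group was far smaller than the distance between groups. Rplp0 was called (-0.28 ± 0.09, adjusted p = 0.0249), while Rplp1, with 159 and 176 CPM in treated cultures against 221 and 245 CPM in untreated ones, was not (-0.47 ± 0.18, adjusted p = 0.0547). Rps6 (-0.19 ± 0.06), Rps27a (-0.23 ± 0.09), Rpl5 (-0.23 ± 0.07) and Rpl10 (-0.19 ± 0.06) were lower in the fit of all libraries, and Rps19 was not called (-0.07 ± 0.11, adjusted p = 0.664). All 4 lost their calls without untreated replicate 2 (adjusted p of 0.135 for Rps6, 0.357 for Rps27a, 0.154 for Rpl5 and 0.106 for Rpl10). Rps27a, at -0.15 without that library, also lost it with the replicate block (adjusted p = 0.0554) and with DESeq2 (adjusted p = 0.0726), and Rps6 and Rpl10 with offsets for GC content and length. Of the 10 members with under 50% shared stretches 6 were lower, as were 12 of the 30 fully shared ones.

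Genes around the ribosome shared the direction at day 16. Of the 14 translation factors 9 were lower with GW3965 and 0 higher, among them the nucleolar chaperone gene Npm1 (-0.46), and of the 32 assembly genes 13 were lower and 0 higher, among them Lyar (-0.66), Fbl, fibrillarin (-0.48), and Ncl, nucleolin (-0.47). Of the 76 mitochondrial ribosomal protein genes 4 were lower, and of the 77 respiratory chain genes 2 were lower and 1 higher. The cell type lists differed between these groups as well. Of 12 neuron genes 11 were higher, with sums of 3595 and 3422 CPM in treated cultures against 2295 and 2247 CPM in untreated ones. All 8 mesenchyme genes were lower, with sums of 6394 and 5080 CPM in treated cultures against 10840 and 12250 CPM in untreated ones, and 11 of 14 pluripotency genes were lower, with sums of 129.8 and 142.7 CPM against 245.2 and 207.9 CPM. The part of these shifts in the members' step was not tested. The 2 treated libraries differed from each other more than any other pair, with a chi-square of 40.39 per gene over all genes against 2.801 to 10.25 in the other groups, while their shares of member reads were 1.248% and 1.259%. The count of 28 became 16 without day 16 replicate 1, 7 without day 16 replicate 2, 10 without treated replicate 1 and 12 without treated replicate 2. With offsets for GC content and length it was 14, and with DESeq2 size factors 18, all lower in each case.

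**Figure D3:**
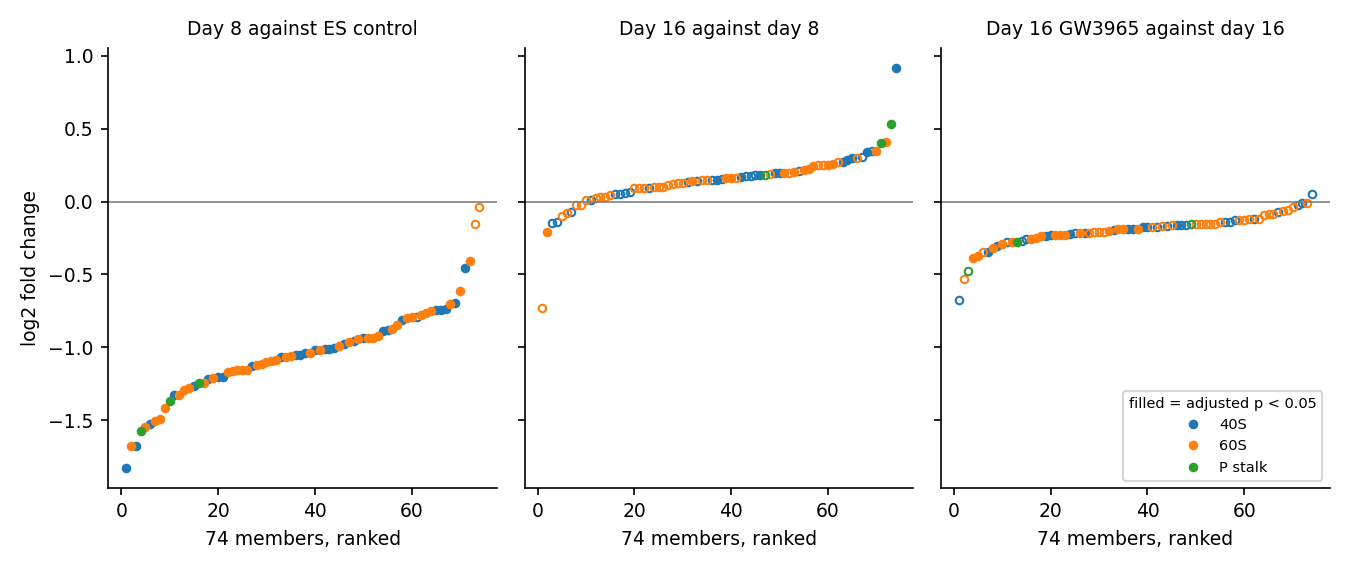
log2 fold changes of the 74 tested members, ranked within each panel, for day 8 against ES control, day 16 against day 8 and GW3965-treated against untreated day 16 cultures; colours mark 40S, 60S and stalk members, and filled points have an adjusted p below 0.05. At day 8 all points lie below 0 with 71 filled; the other panels span smaller steps, with 24 filled above 0 at day 16 and 28 filled below 0 with GW3965.

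In ES cells no member was called with either ligand alone. With GW3965, 0 of 74 members were called by edgeR's quasi-likelihood test, by the DESeq2 Wald test or by limma-voom, and 3 had an unadjusted p below 0.05 in edgeR, where 0.309% of all genes were called higher and 0.0117% lower. With LG268, 0 of 74 were called by any of these 3 tools, and 2 had an unadjusted p below 0.05, where 0.518% of all genes were called higher and 0.332% lower. The median log2 fold change was 0.03 with each ligand, and these comparisons share their control libraries. Rplp2 had 57.6 and 53.9 CPM with GW3965 and 50.5 and 51.9 CPM with LG268, against 40.7 and 52.2 CPM in control cells, so that the LG268 values lie within the control range and those of GW3965 just above it. Rps6 had 466 and 492 CPM with GW3965 and 481 and 482 CPM with LG268, against 445 and 470 CPM in control cells, where the GW3965 and control values overlap and the LG268 values lie just above the controls without a call. A fit of only the 4 libraries compared called 5 members higher with GW3965 and 3 higher with LG268. Rplp1 was among those in both, with 478 and 463 CPM with GW3965 and 422 and 433 CPM with LG268, against 347 and 418 CPM in control cells (log2 fold changes of 0.30 ± 0.18 and 0.16 ± 0.18, not called). With GW3965 it was also called when no filter was set (adjusted p = 0.0125). All 3 stalk genes lay higher in both GW3965 libraries than in both control libraries, as did 21 of the 74 members and 20% of all genes. The GW3965 response at day 16 was more negative than that in ES cells in 11 of 74 members and less negative in 0, by an interaction contrast. In it 9.89% of all genes were called lower and 4.86% higher, 14.8% in either direction.

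With both ligands together a minority of members was lower, with Rplp2 showing the largest called step. Against ES control cells 8 of 74 members were lower and 1 was higher, where 6.47% of all genes were called lower and 4.83% higher, with a median log2 fold change of -0.03 over members. Against GW3965 alone 11 were lower and 0 higher (background 6.98% lower and 3.68% higher), and against LG268 alone 6 were lower and 0 higher (2.57% lower and 1.63% higher). These 3 comparisons share the 2 both-ligand libraries. Rplp2, Rpl36, Rps10, Rps21, Rps15 and Rpl41 were lower in each of them. The GW3965 response in the presence of LG268 was below that without LG268 in 2 members, Rplp2 and Rps10, by an interaction contrast in which 0.128% of all genes were called lower and 0.00583% higher.

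Rplp2 had 19 and 30.3 CPM with both ligands, against 40.7 and 52.2 CPM in control cells (log2 fold change -0.91 ± 0.15, adjusted p = 0.000634). The log2 fold change of both ligands was -1.18 against GW3965 alone and -1.05 against LG268 alone. Its both-ligand libraries lie below all 6 other ES libraries. Its partner Rplp1 had 186 and 376 CPM with both ligands, against 478 and 463 CPM with GW3965 alone (-0.74 ± 0.18, adjusted p = 0.0139) and 347 and 418 CPM in control cells (-0.44, not called). Here the both-ligand libraries stand on either side of a control library. Rps10 had 84.5 and 99.1 CPM with both ligands, against 118 and 129 CPM in control cells (-0.43 ± 0.08, adjusted p = 0.00205). Rpl36, a small 60S protein, had 17.5 and 31.3 CPM with both ligands, against 32.2 and 37.7 CPM in control cells (-0.51 ± 0.16, adjusted p = 0.0419), and Rps21 had 232 and 271 CPM, against 299 and 334 CPM (-0.33 ± 0.09, adjusted p = 0.0177). Rpl5 was the one higher member, with 490 and 408 CPM with both ligands, against 374 and 394 CPM in control cells (0.22 ± 0.07, adjusted p = 0.0469). Its value was 0.09 without both-ligand replicate 1 (adjusted p = 0.579), and the call was also lost with the replicate block (adjusted p = 0.0581), in a fit of the 4 libraries alone and without either control library. Rpl36 was -0.16 (adjusted p = 0.526) and Rps21 -0.23 (adjusted p = 0.199) without both-ligand replicate 1. Rps6, with 504 and 465 CPM with both ligands, overlapped with the control range of 445 to 470 CPM. Of the other members with known special roles none was called against control, with log2 fold changes of -0.35 for Rpl38, -0.25 for Rpl11, -0.16 for Rplp0, -0.03 for Rpl3, 0.05 for Rps19, 0.07 for Rpl22, 0.16 for Rpl10 and 0.21 for Rps27a.

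**Figure D4:**
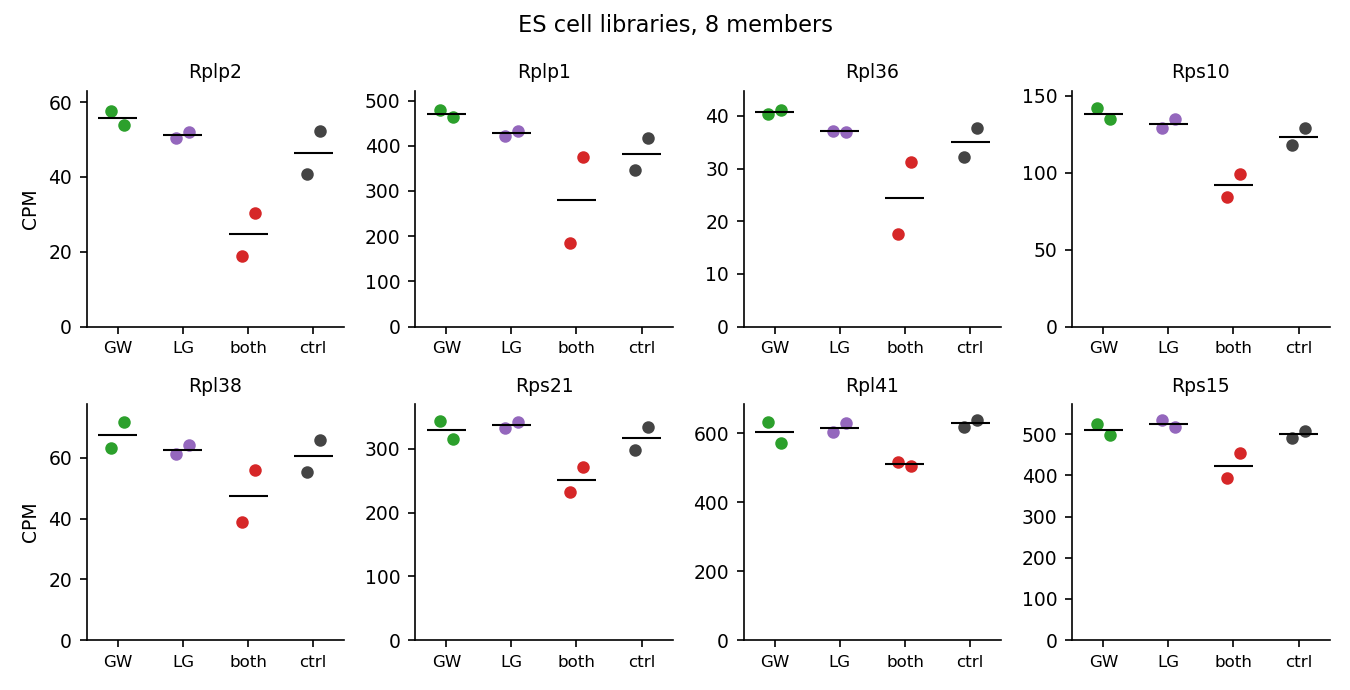
CPM of 8 members in the ES libraries given GW3965, LG268 or both ligands and in the control libraries; points are libraries and lines group means, and each axis starts at 0. Rplp2, Rpl36, Rps10, Rps21, Rpl41 and Rps15 lie lower in both both-ligand libraries than in both control libraries, and Rplp1 and Rpl38 overlap with the controls.

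The both-ligand step was carried unequally by its libraries. Replicate 1 stood below replicate 2 by over 1.5-fold in 5 members, Rplp1, Rplp2, Rpl36, Rps26 and Rps29, and no member differed that much in the other direction. Without both-ligand replicate 2 the count against control was 18 (12 lower, 6 higher), and it was 3 without both-ligand replicate 1, 4 without control replicate 1 and 3 without control replicate 2. A fit of the 4 libraries alone called 1 member, and offsets for GC content and length left 2 lower and 2 higher. In that fit of 4 libraries Rplp2 lost its call (-0.90, adjusted p = 0.0633 in edgeR). The calls of Rps10 (-0.42, adjusted p = 0.0628), Rps21 and Rpl36 were lost there too. The size of the step went with composition: over 72 members the correlation of GC content and log2 fold change was -0.40 against control, and that of log2 mRNA length 0.37, a description across genes of the same libraries. The members lower in all 3 comparisons were Rpl36 (60.8% GC), Rps10 (60.3%), Rps15 (57.8%), Rpl41 (56.3%), Rplp2 (55%) and Rps21 (52.5%). The median over all members was 51.2%, and Rpl5 has 42.7% GC. Rps19, with 59.6% GC, was not called against control. The part of GC content and length in the step was not tested beyond these offsets, under which Rplp2 kept its call (-0.83). Rps10 (-0.21, adjusted p = 0.0543), Rps21 (-0.23, adjusted p = 0.0674), Rpl36 (-0.26, adjusted p = 0.174) and Rpl5 (0.11, adjusted p = 0.234) did not. Of the 32 assembly genes 14 were lower with both ligands than in control cells and 0 higher, among them Gar1 (-0.69), and Mycn (-0.73) and Myc (-0.70) were lower as well.

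At day 17 GW3965 again went with lower counts of many members, among reads aligned once. Of 74 members 33 were lower in GW3965-treated than in untreated cultures and 2 were higher, where 18% of all genes were called lower and 17.2% higher. The median log2 fold change was -0.25 over members and 0.02 over all genes. Of the 10 members with under 50% shared stretches 6 were lower and 0 higher, again with a median of -0.25. Rpl8 had 589 and 577 CPM in treated cultures against 713 and 721 CPM in untreated ones (-0.30 ± 0.05, adjusted p = 0.00026), and Rpl4 had 810 and 848 CPM against 998 and 1060 CPM (-0.31 ± 0.05). Rps3 had 446 and 476 CPM in treated cultures against 553 and 558 CPM in untreated ones (-0.27 ± 0.06). None of these 3 genes overlapped between the groups.

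Large day 17 steps of some members rested on 1 library. Rpl21 had 13.5 and 13 CPM in treated cultures against 13.8 and 44.8 CPM in untreated ones (log2 fold change -1.09 ± 0.30, adjusted p = 0.00767), and Rpl7a had 17.1 and 19.1 CPM in treated cultures against 21.2 and 53.2 CPM in untreated ones (-1 ± 0.24). In both the untreated replicate 2 stands far above the other 3 libraries. Without it the log2 fold changes were -0.05 for Rpl21 (adjusted p = 0.801) and -0.23 for Rpl7a (adjusted p = 0.109). Of 72 members at 1 CPM or more, 10 were over 1.5-fold higher in untreated replicate 2 than in replicate 1, and none was in the other direction. Rps23, a decoding-centre protein, did not depend on it, with 4.06 and 4.08 CPM in treated cultures against 6.96 and 7 CPM in untreated ones (-0.78 ± 0.12, adjusted p = 5.29e-05). This step of Rps23 rests on 91 and 97 counts against 163 and 120. All of its stretches are shared, and its untreated level at day 17 was 7.43% of that at day 16. Rpl12 had 12 and 12.2 CPM in treated cultures against 20.2 and 20.6 CPM in untreated ones (-0.75 ± 0.10), again without overlap. The 2 higher members were Rpl27a, with 53 and 59.4 CPM in treated cultures against 43 and 46.1 CPM in untreated ones (0.34 ± 0.07, adjusted p = 0.000918), and Rpl41, with 522 and 573 CPM against 462 and 444 CPM (0.27 ± 0.06). Rpl3 (-0.43 ± 0.08), Rps19 (-0.52 ± 0.12), Rps6 (-0.26 ± 0.09) and Rpl22 (-0.23 ± 0.06) were lower. Without untreated replicate 2 the calls of Rps19 (-0.19, adjusted p = 0.0704) and Rpl22 (-0.15, adjusted p = 0.0831) were lost, and that of Rps6 was lost without untreated replicate 1 (-0.18, adjusted p = 0.27) and in limma-voom (adjusted p = 0.171). Rps27a (-0.33), Rpl11 (-0.17), Rpl10 (-0.13), Rpl5 (-0.06) and Rpl38 (-0.61) were not called. The stalk genes were not called either, with log2 fold changes of 0.21 for Rplp0, 0.19 for Rplp1 and -0.08 for Rplp2. Without untreated replicate 2 the count was 19 (17 lower, 2 higher) and the median -0.18.

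**Figure D5:**
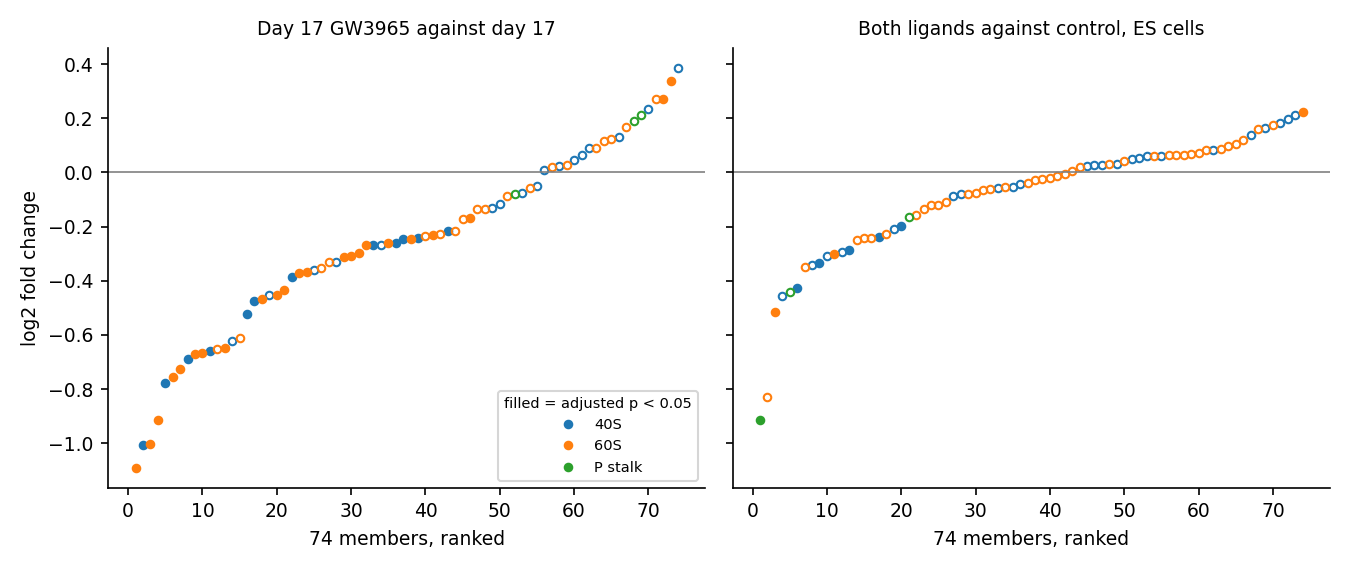
log2 fold changes of the 74 tested members, ranked within each panel: left, GW3965-treated against untreated day 17 cultures; right, ES cells with both ligands against control cells. Colours mark 40S, 60S and stalk members and filled points have an adjusted p below 0.05, 33 below and 2 above 0 at day 17 and 8 below and 1 above 0 in ES cells.

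Genes that build ribosomes were lower with GW3965 at day 17 as well. Of the 32 assembly and rRNA transcription genes 28 were lower with GW3965 and 0 higher (median -0.46), among them Rrs1 (-1.03), Nop14 (-0.91) and Gnl3 (-0.91), and Myc was lower by 1.54 and Eif4ebp1 by 1.18 on the log2 scale. Of the 76 mitochondrial ribosomal protein genes 32 were lower and 3 higher, and of the 8 genes of the p53 response 7 were lower. Of the 14 translation factors 4 were lower and 1 higher, and of the 4 ribosomal proteins outside the symbol rule 0 were called (median -0.06) by edgeR's quasi-likelihood test, and 0 had an unadjusted p below 0.05. Of 10 neural progenitor genes 4 were higher and 0 lower, among them Hes5 (2.24) and Vim (0.74), with sums of 1604 and 1750 CPM in treated cultures against 1134 and 1049 CPM in untreated ones. Of 10 astrocyte and oligodendrocyte genes 4 were higher and 3 lower, with sums of 2308 and 1934 CPM in treated cultures against 2794 and 3072 CPM in untreated ones. Neuron genes were split, with 6 higher and 3 lower of 12, and of 8 mesenchyme genes 3 were higher and 1 lower. The part of these cell type genes in the members' step was not tested.

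The starts of several of these genes carry the sequence that names the TOP mRNAs. They are shown only for members with a run of 5 or more pyrimidines at an annotated start, picked among these for the results above. The windows are those of RefSeq on GRCm38.p6, with 40 bases before and 20 bases from the annotated start on. The run of pyrimidines at the start is in capitals. Rplp2, Rps10, Rps21 and Rpl38 are genes with lower counts under both ligands than under GW3965 alone, Rps6 stands for the members that fell by about the median at day 8, and Rpl15 had the smallest called fall there.
Rplp2 (chr7:141447611-141447670, plus strand): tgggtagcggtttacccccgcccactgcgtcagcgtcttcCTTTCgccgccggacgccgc
Rps10 (chr17:27635225-27635284, minus strand): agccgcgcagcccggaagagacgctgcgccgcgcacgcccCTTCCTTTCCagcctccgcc
Rps21 (chr2:180257339-180257398, plus strand): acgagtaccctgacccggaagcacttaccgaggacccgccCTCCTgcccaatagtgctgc
Rpl38 (chr11:114668540-114668599, plus strand): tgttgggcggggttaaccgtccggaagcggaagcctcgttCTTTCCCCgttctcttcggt
Rps6 (chr4:86857348-86857407, minus strand): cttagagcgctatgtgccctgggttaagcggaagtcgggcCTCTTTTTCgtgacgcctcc
Rpl15 (chr14:18270967-18271026, minus strand): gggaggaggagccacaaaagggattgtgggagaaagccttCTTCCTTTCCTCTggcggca

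RefSeq windows of 300 bases (250 before to 50 after the start) were on hand for 55 of the 75 members. A C followed by at least 4 pyrimidines stood exactly at an annotated start in 13 of them (23.6%), against 3.01% of 27025 genes with a window. CGGAAG, the core that ETS factors such as GABP bind, occurred on either strand in 69.1% of members and 18.8% of all genes, and CACGTG, the E-box that MYC binds, in 10.9% and 8.09%. Each motif was counted on its own, without regard to overlap with another. In the sequences above cggaag lies upstream of the start in Rps10, Rps21, Rpl38 and Rps6. Annotated starts can lie a few bases from the true ones, so that a pyrimidine run beside the start is not counted, and no factor or translation was measured here. The 6 starts shown, with pyrimidine runs of 5 to 13 bases, were picked for having such a run. They therefore cannot say how a run goes with the size of a change. Rps2 and Rpl12, among the largest falls at day 8, had no such run at their annotated start.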

How the data were processed

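RNA of 18 libraries in 9 groups of 2 was sequenced. The authors deposited raw counts of reads per gene symbol, in the layout of HTSeq per the file rows. The submitters' processing notes name mm10, TopHat2 2.0.7, Cufflinks 2.0.2, HTSeq 0.6.0 and Cuffdiff 2.0.2; their settings, the annotation and the use of strand are not given in the sources used here. The 5 summary lines were left out of library sizes: reads assigned to no gene were 42.14 to 43.36% in day 17 files and 62.77 to 65.92% in the others.

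Counts were filtered with filterByExpr, scaled by TMM (factors 0.9124 to 1.108) and fitted over all 18 libraries with edgeR 4.0.16 in R 4.3.3 (quasi-likelihood test, Benjamini-Hochberg adjustment over 17166 genes, threshold 0.05). The common biological coefficient of variation was 6.47%. Errors of log2 fold changes are standard errors. Shared 50-base stretches came from GENCODE release 21 coding sequences on GRCm38, 1 transcript a gene. Alternatives were DESeq2 1.42.0, limma-voom (limma 3.58.1), other filters and scalings, offsets for GC content and length (16994 genes with values), fits without day 17 or of 2 groups alone, a replicate block and leaving out each library; the scripts were tested on simulated data.

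Members and lists were chosen with earlier results of these data known. Named are the stalk genes, Rps6, Rps19, Rps27a, Rpl3, Rpl5, Rpl10, Rpl11, Rpl22 and Rpl38 and, per comparison, up to 4 called rises and 4 called falls of largest size without overlap. Low-shared members at day 17, the smallest falls at day 8 and other examples were picked after their values were seen. Some members that the rule would name are not reported here. Same-numbered replicates shared no signal (correlations of deviations -0.096 to 0.0691 over 36 pairs of libraries), so the numbers were not taken to pair them. Depth of 16748556 to 44788592 gene counts limits members near 1 CPM.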

Additional observations from a re-analysis of the deposited data

Results flagged for a closer look

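The response to GW3965 differed between day 16 cultures and ES cells for 11 of 74 members, all more negative at day 16. This rests on an interaction contrast in edgeR's quasi-likelihood fit, where 9.89% of all genes were called lower and 4.86% higher. In either direction 14.8% of all genes were called, so the number of differing members lies near the share of all genes. All 11 called members were lower, and among all genes more were called lower than higher too. Whether the members' direction departs from that background was not tested. Exposure to GW3965 lasted 24 h in ES cells and may have been longer in the day 16 cultures. The contrast was added after the data were seen. The log2 differences were -0.773 for Rplp1 (adjusted p = 0.0493), -0.584 for Rpl12 (0.00266), -0.511 for Rps10 (0.00452), -0.429 for Rplp0 (0.0289), -0.413 for Rpl8 (0.00112) and -0.403 for Rpl13a (0.00278). They were -0.303 for Rpl14 (0.0167), -0.281 for Rpl3 (0.0177), -0.273 for Rpl4 (0.0214), -0.251 for Rps6 (0.0353) and -0.247 for Rps20 (0.0317). The count was 7 with offsets for GC content and length and ran from 4 (without ES control replicate 1, or without GW3965 ES replicate 1) to 10 when single libraries were left out. It was 5 or 6 without any other single library except ES control replicate 2, which gave 10.

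The GW3965 response of ES cells in the presence of LG268 differed from that in its absence for 2 members, where 0.128% of all genes were called lower and 0.00583% higher. The log2 difference was -1.31 for Rplp2 (adjusted p = 0.0151) and -0.684 for Rps10 (adjusted p = 0.0238). The count was 1 with offsets for GC content and length. It was 0 without ES control replicate 1 or without either library of GW3965 or of LG268, 1 without ES control replicate 2 or both-ligand replicate 1, and 15 without both-ligand replicate 2. With 0 called, 13 to 18 members had an unadjusted p below 0.05 in edgeR, and no other tool was run on this contrast.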

How the results depend on the processing

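Among the members named by the fixed rule in each comparison, no called value changed sign under any alternative. The signs of the other members were not compared. Counts of called members are given as reported first. Day 8 against ES control: 71; 10 of 10 with under 50% shared stretches (a choice added after seeing the data, as below), 3 of 3 with under 10%; 71 to 72 without single libraries. Day 16 against day 8: 25, then 38 with DESeq2 size factors, 11 with GC and length offsets, 54 in a fit of the 2 groups, 5 and 3 in the low-shared subsets, and 8 to 18 without single libraries. GW3965 at day 16: 28, then 18 with DESeq2 size factors, 14 with offsets, 6 and 2 in the subsets, and 7 to 16 without single libraries. GW3965 at day 17: 35, then 6 and 2 in the subsets and 19 to 32 without single libraries. GW3965 in ES cells: 0, then 1 with no filter and 5 in the fit of 2 groups. LG268 in ES cells: 0, then 3 in that fit. Leaving out single libraries gave 0 to 0 in both, with 0 to 3 members at an unadjusted p below 0.05 in edgeR, and DESeq2 and limma-voom gave 0.

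Both ligands against control: 9, then 16 with no filter, 4 with offsets, 1 in the fit of 2 groups, 3 and 0 in the subsets, and 3 to 18 without single libraries. Both ligands against GW3965: 11, then 17 with no filter, 17 without day 17 libraries, 2 in the fit of 2 groups, 18 with limma-voom, 2 and 0 in the subsets, and 2 to 18 without single libraries (2 without GW3965 replicate 1 or both-ligand replicate 1, 6 without GW3965 replicate 2, 18 without both-ligand replicate 2). Both ligands against LG268: 6, then 15 with no filter, 0 in the fit of 2 groups (22 at an unadjusted p below 0.05), 12 with limma-voom, 2 and 0 in the subsets, and 2 to 21 without single libraries (2 without either LG268 library or both-ligand replicate 1, 21 without both-ligand replicate 2). The differences between GW3965 responses moved to 7 and 1 with offsets, and to 4 to 10 and 0 to 15 without single libraries. The subsets hold fewer genes; other causes were not tested.

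With the replicate block the counts were 71, 26, 27, 35, 0, 0, 9, 13 and 7 in the order above, and 11 and 2 for the differences between responses, so that it moved no count by over 1.5 times. Where a single library was left out, the lone sample of its group was assumed to vary like the other groups. Depth limits Rpl26, Rpl30, Rpl34 and Rps27.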

Other observations

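Paralogs of ribosomal protein genes, which can replace a member in some tissues, are not among the 75 members. All 7 tested paralogs were lower at day 8 than in ES control cells (median log2 fold change -1.28), led by Rpl10l (-3.91), Rpl3l (-3.76) and Rpl39l (-3). In GW3965-treated day 16 cultures 5 of 7 were lower than in untreated ones and 0 higher (median -0.31), and between day 16 and day 8 2 were higher and 3 lower. At day 17 with GW3965 1 was higher and 3 were lower (median -0.05). Rpl39l, below 1 CPM on average in each of these groups, was 1.78 higher on the log2 scale at day 17 with GW3965 and had a log2 fold change of -1.77 with GW3965 at day 16. In ES cells 0 of 7 were called with GW3965, with LG268 or with both ligands against control, where 1 of 7 in each had an unadjusted p below 0.05 in edgeR's quasi-likelihood test, and no other tool was run on this list.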
